A study of Mus musculus with 4 samples.

Results

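The genes described here are 10 nerve injury and regeneration response genes of the mouse: the transcription factor genes Atf3 and Jun, the genes of growth-associated and structural proteins Gap43, Stmn2, Stmn4 and Sprr1a, the genes of secreted peptides Gal and Vgf, and Gadd45a and Socs3, which act in growth arrest and in cytokine feedback. They are 10 of 18193 genes named on the array and are read by 14 of 45037 probe sets, groups of short oligonucleotides that give 1 intensity for a transcript. The set was chosen on measured values, since Atf3, Sprr1a and Gal read higher on the arrays numbered 1 than on those numbered 0 in both preparations. The differences of all 10 genes between the numbers are therefore given as a description, with no test, and only the comparison of the preparations was tested for them.

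Total RNA from the brain, the hindbrain and the spinal cord of mice was hybridised to 4 Affymetrix arrays. Of these, 2 received cDNA that a Nugen kit had amplified, while 2 received antisense RNA (aRNA) made by amplification from a T7 promoter. Each preparation has an array numbered 1 and an array numbered 0 (N1 and N0 for cDNA, R1 and R0 for aRNA). The labels give the numbers no meaning and name no strain, genotype, age, injury or treatment, and nothing in them states that arrays came from separate animals. P-values below therefore measure only the spread between these arrays, and the small number of arrays limits the precision. On cDNA that spread may be technical, while the 2 aRNA arrays also differ in sex-linked transcripts, as given below.

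When an axon is cut or its neuron is stressed, the c-Jun N-terminal kinase pathway and cytokines that signal through the gp130 receptor reach the cell body and switch on a regeneration programme. Atf3 and c-Jun are early transcription factors of that programme, and structural proteins of the growth cone, neuropeptides such as galanin and feedback inhibitors such as SOCS3 follow. In adult motor and sensory neurons Atf3 and Sprr1a are close to silent until the axon is injured, whereas the stathmin gene Stmn2 and the neurofilaments are made by neurons at all times.

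Differences are on the log2 scale of intensity + 16, number 1 minus number 0 or cDNA minus aRNA. The background level, the 95th percentile of 27 control probe sets for Bacillus transcripts, was an intensity of 249 (array 1) and 212 (array 0) in the cDNA preparation. In the aRNA preparation it was 126 (array 1) and 123 (array 0). Of the members' 14 probe sets 13 lay above it on all 4 arrays. These 13 also passed the filter on low values, and the 1 left out was Socs3 probe set 1416576_at. Neuronal genes were present, and all 9 genes of a neuronal marker list lay above background on every array. All 8 astrocyte and all 6 oligodendrocyte genes measured did so too. Of 7 motor neuron genes, 5 lay above it on all 4 arrays, among them Chodl (39065 to 62451), the peripheral neurofilament gene Prph (62263 to 74914) and the transcription factor gene Isl1 (30680 to 61905), while Mnx1 lay under it throughout. The neuronal list itself ranged from Syt1 (1892 to 4023) to Eno2 (83705 to 164256). How much of the RNA came from motor neurons was not tested. Array 0 of aRNA stood apart in sex-linked transcripts. Xist, the RNA of the inactive X chromosome, read 44312 on aRNA array 1 and 359 on aRNA array 0 at probe set 1436936_s_at, against 5812 and 3913 on cDNA arrays 1 and 0, and the Y-linked gene Eif2s3y read 94.7 on aRNA array 1 and 8896 on aRNA array 0. The aRNA difference between the numbers thus also sets unlike sex-linked transcripts against each other. For the members, values without that array are those of the cDNA pair, given separately. Fits and counts over the 4 arrays include it.

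The promoters of 4 members are shown because Atf3, Sprr1a and Gal are the 3 that differ most between the numbers, and Jun, which hardly differs, encodes a partner of Atf3. Each is the stretch of 250 bases before the gene's start, 5′ to 3′ on the minus strand, from RefSeq (GRCm38.p6): chr1:191183334-191183583 for Atf3, chr3:92485882-92486131 for Sprr1a, chr19:3414545-3414794 for Gal and chr4:95052223-95052472 for Jun. Capitals mark matches, on either strand, to TGANTCA (the AP-1 motif bound by Jun and Fos dimers) or TNACNTCA (a relaxed form of the cAMP response element TGACGTCA, which it includes).
Atf3: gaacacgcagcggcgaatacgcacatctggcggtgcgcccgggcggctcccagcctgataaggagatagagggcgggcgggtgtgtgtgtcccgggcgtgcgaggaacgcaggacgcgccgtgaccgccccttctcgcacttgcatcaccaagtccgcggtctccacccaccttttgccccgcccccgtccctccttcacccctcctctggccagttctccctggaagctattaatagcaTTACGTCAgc
Sprr1a: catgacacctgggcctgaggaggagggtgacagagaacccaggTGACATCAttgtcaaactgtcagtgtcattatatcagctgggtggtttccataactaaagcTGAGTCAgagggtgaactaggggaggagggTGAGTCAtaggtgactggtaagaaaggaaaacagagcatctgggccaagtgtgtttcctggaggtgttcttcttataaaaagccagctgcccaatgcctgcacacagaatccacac
Gal: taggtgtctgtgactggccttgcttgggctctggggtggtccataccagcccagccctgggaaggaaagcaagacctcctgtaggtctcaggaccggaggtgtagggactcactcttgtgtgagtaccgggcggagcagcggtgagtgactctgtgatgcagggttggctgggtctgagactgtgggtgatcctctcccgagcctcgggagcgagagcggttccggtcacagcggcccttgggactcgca
Jun: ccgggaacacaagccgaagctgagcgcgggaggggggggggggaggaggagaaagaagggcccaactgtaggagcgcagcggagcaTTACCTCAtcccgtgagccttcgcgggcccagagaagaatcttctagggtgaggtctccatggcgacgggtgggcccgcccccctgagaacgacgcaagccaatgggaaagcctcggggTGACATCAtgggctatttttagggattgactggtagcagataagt

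The table of promoters held 6 of the 10 members. Sprr1a had 2 matches to TGANTCA, both reading TGAGTCA, with their first base 146 and 116 bases before the start, and 1 match to TNACNTCA (TGACATCA) 207 bases before it. Atf3 had 1 match to TNACNTCA (TTACGTCA) 10 bases before the start. Jun had 2 matches to TNACNTCA, 164 and 45 bases before the start. Gal had no match, and neither did Gadd45a. Of the 32851 promoter windows of this length, 6.75% hold TGANTCA, 14.0% hold TNACNTCA and 1.55% hold TGACGTCA, which none of the 6 members holds. The STAT motif TTCNNNGAA stood in 7.02% of the windows and in Socs3 alone among the 6, as TTCTTAGAA 154 bases before its start. The motifs do not overlap in these windows, were chosen after the sequences had been seen, and are matches of letters only.

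Among the transcription factors, Atf3, a stress-induced member of the ATF/CREB family (chromosome 1, 191170296 to 191183333, GRCm38.p6), had an intensity of 2740 and 3670 on the number 1 arrays of cDNA and aRNA, against 493 and 314 on the number 0 arrays. Both number 1 arrays lay above both number 0 arrays, and even the lower ones were above background. The difference was 2.44 on cDNA and 3.48 on aRNA, a mean of 2.96 ± 0.74 (SD over the 2 preparations), or 5.56-fold and 11.7-fold in intensity. The preparations themselves were close for Atf3, at 10.21 ± 1.72 on cDNA and 10.11 ± 2.46 on aRNA (SD, n = 2), a difference of 0.10 ± 1.08 (SE, limma adjusted p = 0.949) whose sign turned with median centring (−0.047) and with 1 array left out (−1.64 to 1.84). Each preparation held a high and a low array of Atf3.

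Jun (chromosome 4, 95049036 to 95052222), which encodes the AP-1 subunit c-Jun, showed no such gap. Its probe set 1448694_at read 41867 and 15317 on the number 1 arrays of cDNA and aRNA, against 37427 and 14256 on the number 0 arrays, differences of 0.16 and 0.10. At 1417409_at the values were 3655 and 12283 on the number 1 arrays, against 3523 and 12697 on the number 0 arrays, with differences of 0.05 and −0.05. Atf3 and Jun thus stand far apart in this comparison. Between the preparations the 2 Jun probe sets went opposite ways. Probe set 1448694_at was higher on cDNA by 1.42 ± 0.20 (SE, limma adjusted p = 0.000677) and 1417409_at lower by −1.79 ± 0.25 (limma adjusted p = 0.000616), so the array gives no single direction for Jun.

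The structural genes split in the same manner. Sprr1a (chromosome 3, 92483954 to 92485881) encodes a small proline-rich protein of the cornified envelope of skin that regrowing axons also make. It read 8507 and 5052 on the number 1 arrays of cDNA and aRNA, against 1113 and 221 on the number 0 arrays. The value of 221 on aRNA array 0 stood against a background of 123. The groups did not overlap, and the difference was 2.92 on cDNA and 4.42 on aRNA (mean 3.67 ± 1.06, SD over the 2 preparations), or 7.64-fold and 22.9-fold in intensity. Of 8 keratinocyte genes measured, 3 lay above background on all arrays, and the summed intensity of the 8 was 5846 and 5817 on the number 1 arrays, against 2801 and 5106 on the number 0 arrays. Krt14 lay above background on neither cDNA array and read 157 and 180 on aRNA arrays 1 and 0, and Sprr1b lay under background on all 4 arrays. Krt1 and Lor read higher on array 1 in both preparations, Krt10 on cDNA alone. Their part in the Sprr1a values was not tested. Between the preparations Sprr1a differed by 1.50 ± 1.30 (SE, limma adjusted p = 0.379), and it was called higher on cDNA without aRNA array 1 (3.71, adjusted p = 0.00596) but not without aRNA array 0 (−0.71, adjusted p = 0.546).

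Gap43 (chromosome 16, 42248552 to 42340651), the growth cone protein GAP-43, read 3451 and 10338 on the number 1 arrays of cDNA and aRNA, against 2405 and 7428 on the number 0 arrays. Within each preparation array 1 was higher, by 0.52 on cDNA and 0.48 on aRNA, while the level on aRNA array 0 was above that on cDNA array 1. Gap43 was lower on cDNA than on aRNA by −1.60 ± 0.31 (SE, limma adjusted p = 0.00347), with 11.50 ± 0.37 on cDNA and 13.10 ± 0.34 on aRNA (SD, n = 2).

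Stmn2 (chromosome 3, 8509527 to 8561604; SCG10, a tubulin-binding stathmin of axons) was bright on all 4 arrays. Probe set 1423280_at read 43602 and 98550 on the number 1 arrays of cDNA and aRNA, against 42419 and 88264 on the number 0 arrays, differences of 0.04 and 0.16. Under quantile normalization their mean was −0.05, so this probe set has no settled direction between the numbers. Probe set 1423281_at read 58720 and 13923 on the number 1 arrays, against 49803 and 7827 on the number 0 arrays, differences of 0.24 and 0.83. As with Jun, the 2 probe sets were called in opposite directions between the preparations, 1423281_at higher on cDNA by 2.37 ± 0.28 (SE, limma adjusted p = 0.000312) and 1423280_at lower by −1.12 ± 0.17 (limma adjusted p = 0.00101).

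Stmn4 (chromosome 14, 66344210 to 66361680), a further neuronal stathmin, differed from the other structural genes. It read 2183 and 19739 on the number 1 arrays of cDNA and aRNA, against 4918 and 19004 on the number 0 arrays. On cDNA array 1 was the lower array, by −1.17, and on aRNA the arrays were nearly equal (0.05). It had the widest gap between the preparations among the members tested, −2.56 ± 0.37 on cDNA minus aRNA (SE, limma adjusted p = 0.000752).

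Of the secreted peptides, Gal (chromosome 19, 3409915 to 3414544) encodes galanin, a neuropeptide that motor and sensory neurons make in quantity after axon injury. It read 8991 and 10600 on the number 1 arrays of cDNA and aRNA, against 1975 and 3117 on the number 0 arrays. The groups did not overlap. The difference was 2.18 on cDNA and 1.76 on aRNA (mean 1.97 ± 0.29, SD over the 2 preparations), or 4.55-fold and 3.40-fold in intensity, and of the 3 genes that led the choice it was the one most alike in the 2 preparations. Galanin is also made in the hypothalamus. Of 7 hypothalamic peptide genes measured, 3 lay above background on all arrays, and the summed intensity of the 7 was 15246 and 3195 on the number 1 arrays, against 2726 and 2722 on the number 0 arrays, the highest sum being mostly Pmch on cDNA array 1 (13014). Pomc, the other way round, read 437 on cDNA array 1 and 1449 on cDNA array 0, and the part of hypothalamic RNA in the Gal values was not tested. Between the preparations Gal differed by −0.45 ± 0.72 (SE, limma adjusted p = 0.642).

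Vgf (chromosome 5, 137025301 to 137033351), a secreted granin-like protein induced by neurotrophins and activity, read 43524 and 30798 on the number 1 arrays of cDNA and aRNA, against 41050 and 8771 on the number 0 arrays. On cDNA the arrays were nearly equal (0.08), whereas on aRNA array 1 was 3.51-fold brighter (1.81). The low value was that of aRNA array 0. Vgf was called higher on cDNA by 1.36 ± 0.47 (SE, limma adjusted p = 0.0439). That call was lost when array 0 of aRNA was left out (0.46, adjusted p = 0.161). It was also lost when array 1 of cDNA (1.32, adjusted p = 0.119) or array 0 of cDNA (1.40, adjusted p = 0.0995) was omitted, and leaving out array 1 of aRNA gave 2.27 (adjusted p = 2.87e-05).

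Gadd45a (chromosome 6, 67035096 to 67037407), a growth arrest gene that is among the injury-induced genes of sensory neurons, went opposite ways. It read 1921 and 3428 on the number 1 arrays of cDNA and aRNA, against 2781 and 2416 on the number 0 arrays, differences of −0.53 and 0.50. The groups overlapped, and so did the preparations, which differed by −0.31 ± 0.35 (SE, limma adjusted p = 0.495).

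Socs3 (chromosome 11, 117966079 to 117970336) encodes an inhibitor of JAK-STAT signalling that limits axon regrowth, and its 3 probe sets disagreed. Probe set 1456212_x_at read 1824 and 1408 on the number 1 arrays of cDNA and aRNA, against 848 and 331 on the number 0 arrays, differences of 1.09 and 2.04. Probe set 1455899_x_at read 2245 and 2549 on the number 1 arrays, against 1959 and 318 on the number 0 arrays, differences of 0.20 and 2.94. At both, the number 1 arrays lay above the number 0 arrays, by little on cDNA for the second. The suffix _x_at marks probe sets with probes that may bind other transcripts too. The third, 1416576_at, read 27.6 and 387 on the number 1 arrays, against 51.1 and 364 on the number 0 arrays. It lay under background on both cDNA arrays, so the aRNA arrays were at least 1.59-fold higher there. The filter left it out of the test, and without the filter it was called lower on cDNA (limma adjusted p = 0.0331). Between cDNA and aRNA the 2 probe sets tested differed by 1.19 ± 0.78 and 0.84 ± 0.67 (SE, limma adjusted p = 0.25 for 1455899_x_at and 0.341 for 1456212_x_at). Without aRNA array 1 both were called higher on cDNA, by 2.66 (adjusted p = 0.00274) and 1.86 (0.0494). Without aRNA array 0 they differed by −0.28 and −0.18 and were not called.

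**Figure D1:**
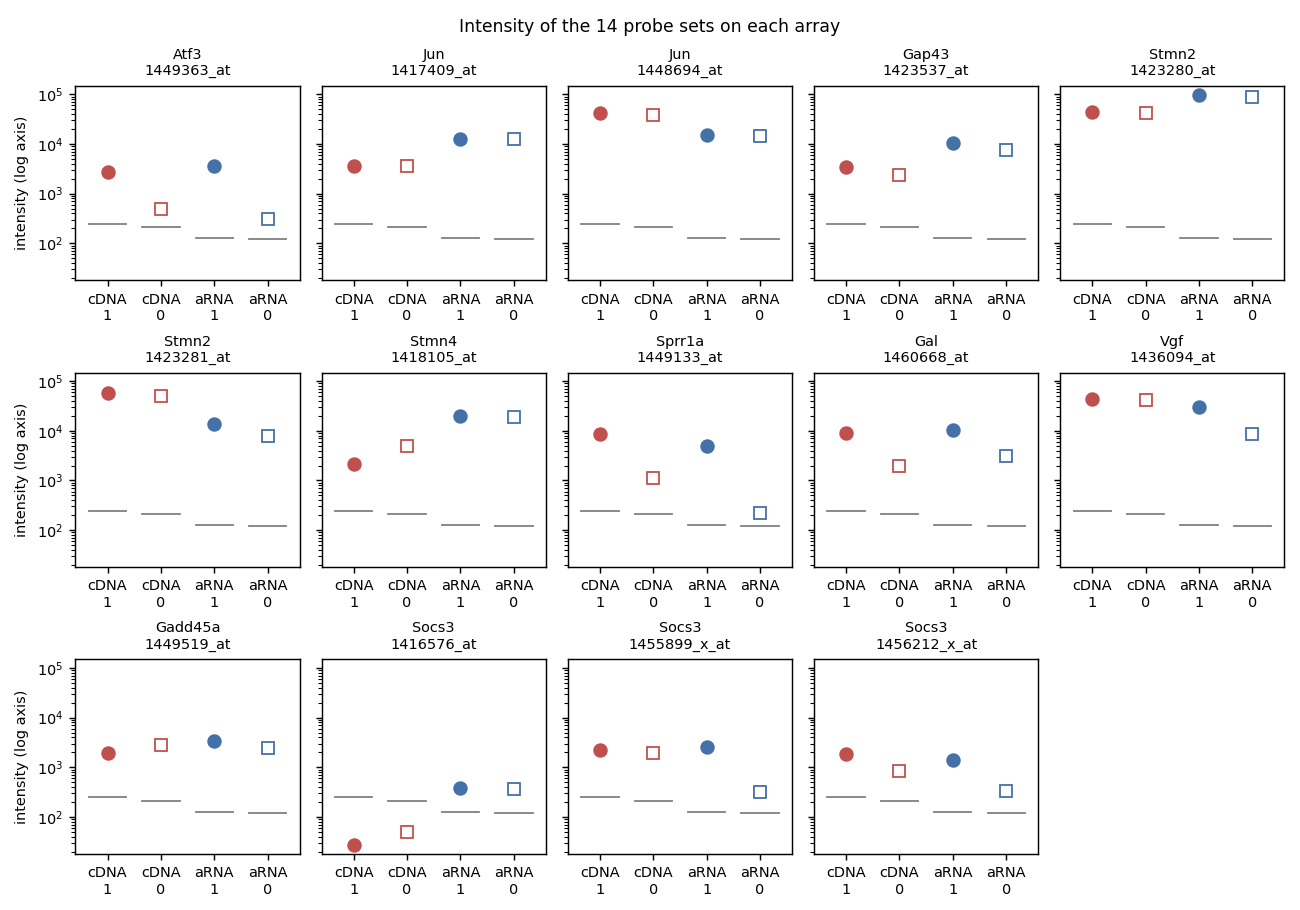
Intensity (log axis) of the 14 probe sets of the 10 genes on each array. Filled circles are arrays numbered 1, open squares arrays numbered 0, red is cDNA and blue aRNA, and the grey bars are the background level of each array. Atf3, Sprr1a, Gal and the 2 Socs3 probe sets ending in _x_at have both filled points above both open ones, at 2740 and 3670 against 493 and 314 for Atf3. Jun, Gap43, Stmn2, Stmn4, Vgf and Socs3 1416576_at separate by colour.

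Over all members, 10 of the 14 probe sets had a higher value on array 1 in both preparations, where 24.9% of all probe sets tested did, and 4 had opposite signs, where 48.5% did. Both number 1 arrays lay above both number 0 arrays at 5 probe sets (Atf3, Sprr1a, Gal and 2 of Socs3), where 6.63% of the 22519 probe sets tested do so. Differences of at least 2-fold in both preparations were seen at 4 (the same without Socs3 1455899_x_at), against 0.622% of all tested. Since the members were chosen on this difference, nothing is read from these shares. By the lower of the 2 differences, Sprr1a ranked 3, Atf3 7 and Gal 21 among all probe sets tested, Socs3 1456212_x_at ranked 111, Gap43 897, and the other tested probe sets came at rank 2350 or further down. The 10 genes were thus not uniform. Atf3, Sprr1a and Gal had large differences in both preparations, Gap43 a small one in both, Vgf a large one on aRNA alone (3.51-fold, against 1.06-fold on cDNA), and Stmn4 and Gadd45a opposite signs. The tissue is a mixture of cells, so fewer cells of a type and less RNA per cell cannot be told apart.

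**Figure D2:**
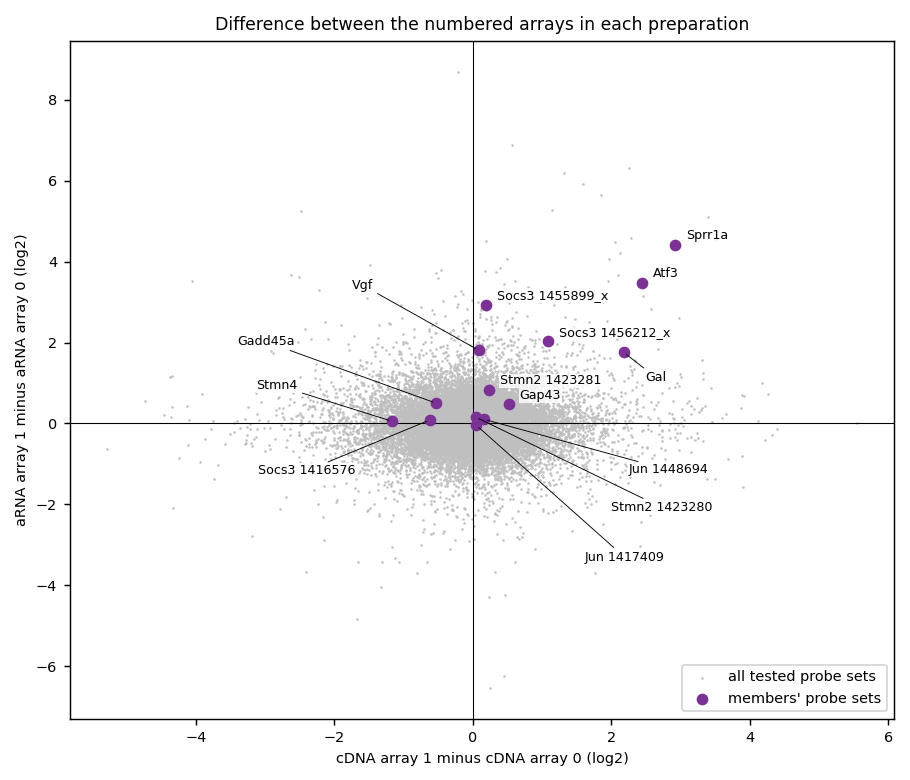
Difference between array 1 and array 0 (log2 scale) on cDNA (horizontal) and aRNA (vertical), with the 22519 tested probe sets in grey and the members' 14 probe sets in purple. Sprr1a (2.92 and 4.42), Atf3 (2.44 and 3.48) and Gal (2.18 and 1.76) lie at the upper right, Socs3 1456212_x_at lies at 1.09 and 2.04, and Vgf and Socs3 1455899_x_at lie near the vertical axis.

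The differences between the preparations did not enter the choice. Of the 13 tested probe sets 3 were called higher on cDNA and 4 lower, and 6 were not called. Over all probe sets tested 20.2% were called higher and 22.9% lower, so 3 and 4 of 13 are close to the background and say nothing particular about these genes. With each array centred on its median, higher calls made up 39.5% of all calls, against 46.9% as deposited, and the median difference of all probe sets was −0.25, against −0.11 as deposited. The directions of the 7 called probe sets were the same under every alternative run. Jun 1417409_at, Jun 1448694_at, Gap43, Stmn4 and both Stmn2 probe sets stayed under 0.05 throughout, and Vgf did not. The SE was widest for Sprr1a (1.30) and Atf3 (1.08). The number was not in this model, so the gaps between the numbers that led the choice of Atf3, Sprr1a and Gal entered their SE. Nothing is therefore read from the lack of a call for these 3 genes.

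**Figure D3:**
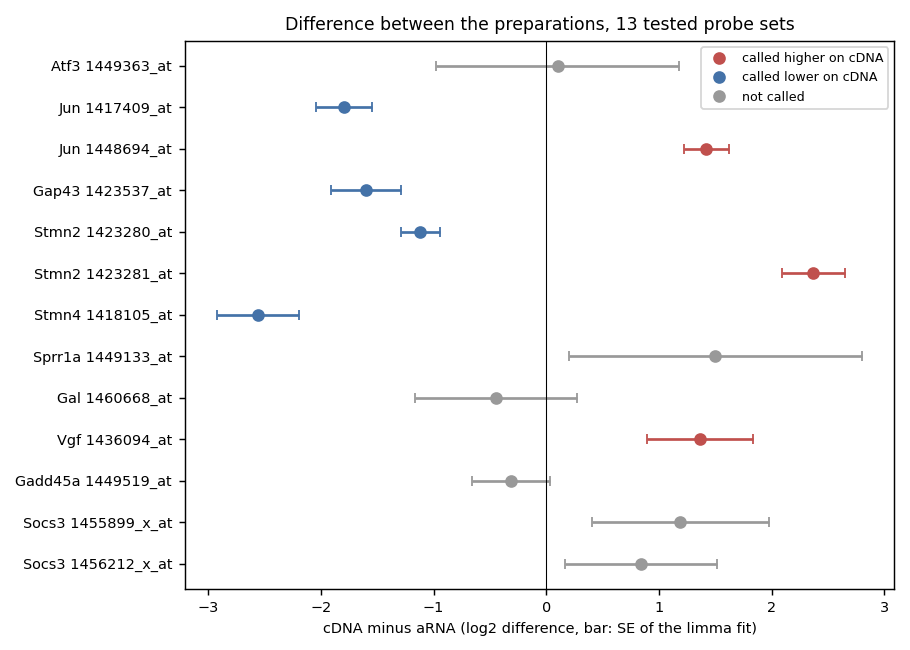
Difference between cDNA and aRNA (log2 scale) for the 13 tested probe sets, with the SE of the limma fit as the bar. Red points were called higher on cDNA, blue ones lower, and grey ones were not called. The 2 probe sets of Jun (1.42 and −1.79) and of Stmn2 (2.37 and −1.12) lie on opposite sides of 0, and the bars of Atf3, Sprr1a and Gal are long.

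Other genes of the injury and regeneration programme were taken from 6 lists (117 genes, 108 on the array, 96 tested at 1 probe set each). In an additive model of preparation and number, limma called none of the 96 between the numbers, where 0.0622% of all probe sets tested were called. That model leaves 1 residual degree of freedom, which is how far the differences on cDNA and aRNA disagree. At an unadjusted p under 0.05 limma found 25 of the 96 (26.0%), against 5.86% of all probe sets tested. The median difference was 0.23 on cDNA and 0.32 on aRNA, against −0.02 and −0.00 for all probe sets. For 9 neuronal marker genes, among them the member Stmn2, it was 0.22 and 0.21. Of these 9, 7 were higher on array 1 in both preparations, as were 2 of 5 motor neuron genes. Of the 96 pathway genes, read at their brightest probe set, 54 (56.2%) were, against 24.9% of all probe sets tested. The lists were chosen with earlier results of these data known. Nothing is therefore read from the shares and medians of the 96 genes. With quantile normalization 4 of these genes were called, all higher on number 1: Npy (3.74, adjusted p = 3.79e-05), Cd44 (2.41, 0.036; under background on cDNA array 0, and at least 4.84-fold as deposited), Tubb6 (1.64, 0.0413) and Tubb2b (0.93, 0.044).

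At least 2-fold higher on array 1 in both preparations were 4 of the 96 genes, named after their values were seen. Npy encodes neuropeptide Y, which injured sensory neurons make. It read 3036 and 8757 on the number 1 arrays of cDNA and aRNA, against 829 and 160 on the number 0 arrays, with limma adjusted p = 0.104 in the additive model. Vip, a further neuropeptide of injured neurons, read 732 and 1751 on the number 1 arrays, against 312 and 691 on the number 0 arrays (limma adjusted p = 0.779). Tubb6, a beta-tubulin, read 2886 and 6759 on the number 1 arrays, against 1008 and 2076 on the number 0 arrays (limma adjusted p = 0.297). The hyaluronan receptor gene Cd44 read 651 and 3000 on the number 1 arrays, against 165 and 361 on the number 0 arrays, the first of these under background (limma adjusted p = 0.285).

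By role, the median difference was 0.23 on cDNA and 0.35 on aRNA for 21 injury and regeneration transcription factors, and 0.31 and 0.33 for 30 axon growth and cytoskeleton genes. It was 0.39 and 0.60 for 10 neuropeptides and their receptors, 0.35 and 0.53 for 8 neurotrophic factors and receptors, and 0.22 and 0.28 for 13 genes of gp130, JAK-STAT and SOCS signalling. For 15 genes of growth arrest, JNK and axon damage signalling it was 0.14 and −0.11. Within that last list Map3k12, the kinase DLK that relays axon damage to c-Jun, read 10605 and 7414 on the number 1 arrays of cDNA and aRNA, against 7811 and 7977 on the number 0 arrays (the gene was named after its values were seen).

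**Figure D4:**
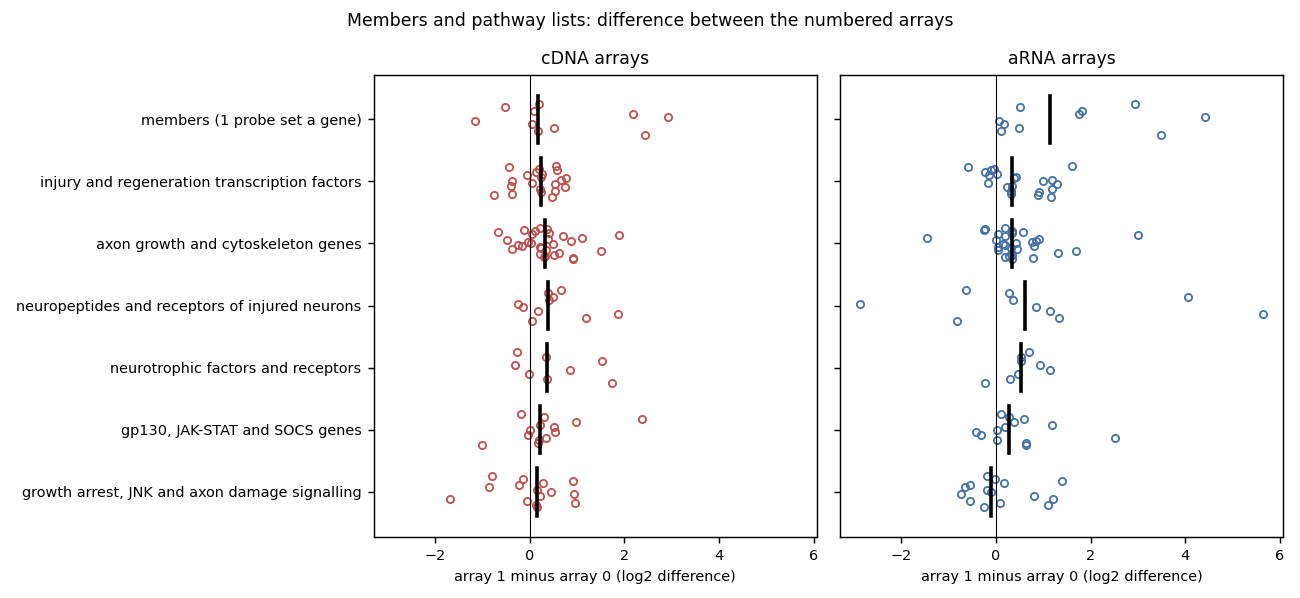
Difference between array 1 and array 0 (log2 scale) of each gene (circle) on cDNA, left, and aRNA, right, for the 10 members and the 6 pathway lists, with the median as a black bar. The list medians lie between 0.14 and 0.39 on cDNA and between −0.11 and 0.60 on aRNA, while 3 members exceed 2 on cDNA.

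Between the preparations 18 of the 96 genes were higher on cDNA and 19 lower, close to the background shares above. Of the 21 transcription factors 6 were higher, led by Jund (2.54) and Egr1 (2.04), and 7 lower, led by Stat3 (−3.64) and Cebpb (−3.62). Of the 30 axon growth genes 5 were higher, led by Marcks (2.99) and Ncam1 (2.60), and 3 lower, led by Tnfrsf12a (−1.45) and Crmp1 (−1.44). Of the 10 neuropeptide genes 2 were higher, Tac1 (at least 19.7-fold) and Crh (at least 6.28-fold), both under background on an aRNA array, and 2 lower, Cck (−1.88) and Nts (−1.45). Of the 8 neurotrophic genes Ret (0.76) was higher and Gfra1 (−1.03) lower. Of the 13 gp130 and JAK-STAT genes 2 were higher, Il6ra (1.95) and Jak2 (1.90), and 4 lower, led by Stat3 and Il6st (−2.39). Of the 15 growth arrest and damage signalling genes 2 were higher, Mapk9 (2.17) and Mdm2 (0.96), and 3 lower, led by Bcl2l11 (−2.28) and Pmaip1 (at least 2.84-fold lower, under background on cDNA array 1). The limma adjusted p of the genes named lay between 6.69e-05 and 0.0331.

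Of 8 tested markers of microglia and macrophages, 7 read higher on array 1 in both preparations, as Atf3, Sprr1a and Gal did. Of all probe sets tested 24.9% did so. By limma 2 were called higher on number 1, the adaptor gene Tyrobp (2.74, limma adjusted p = 0.022) and Ctss, the protease cathepsin S (1.75, limma adjusted p = 0.00902), where 0.0622% of all probe sets tested were called. On cDNA and aRNA the differences were 1.95 and 3.53 for Tyrobp and 1.53 and 1.96 for Ctss. Both calls were lost without the intensity trend (limma adjusted p = 0.924 for each), and that of Tyrobp with a pseudocount of 64 (0.0527). At an unadjusted p under 0.05 by limma were 7 of the 8 microglial genes. Of all probe sets tested 5.86% were, which is the share to set beside such counts below. The marker lists were also chosen with earlier results of these data known. Nothing is therefore read from their calls and counts between the numbers. The summed intensity of the 10 microglial genes was 89260 and 115052 on the number 1 arrays of cDNA and aRNA, against 41064 and 23038 on the number 0 arrays. Of these 10, 7 lay above background on all 4 arrays. Neuronal markers, the member Stmn2 included, had sums of 736277 and 685643 on the number 1 arrays, against 636515 and 628036 on the number 0 arrays. The 7 motor neuron genes summed to 184244 and 164107 against 180689 and 169972. Leaving out the member Stmn2, none of the neuronal genes and of the 5 motor neuron genes tested was called by limma. None of them had an unadjusted p under 0.05. Astrocyte genes summed to 203642 and 177869 on the number 1 arrays, against 201405 and 114375 on the number 0 arrays, with none of 8 called and 4 at an unadjusted p under 0.05. Schwann cell genes summed to 94480 and 73194 on the number 1 arrays, against 88571 and 69082 on the number 0 arrays, mostly from Pmp22 (64432 to 83000). None of the 4 tested was called or at an unadjusted p under 0.05. Neutrophil genes, none of the 6 above background on all arrays, summed to 30374 and 612 on the number 1 arrays, against 8407 and 932 on the number 0 arrays, with none of 3 tested called and 2 at an unadjusted p under 0.05. Of the 3 keratinocyte genes tested none was called and 2 (Lor and Krt1) had an unadjusted p under 0.05, as did 1 of 3 hypothalamic genes (Pmch) and 1 of 6 oligodendrocyte genes (Mobp, lower on number 1), none of them called. Sensory neuron genes summed to 127618 and 108695 on the number 1 arrays, against 117033 and 104111 on the number 0 arrays. Most of these sums was Isl1 and Prph, which are also in the motor neuron list. No other sensory neuron gene read above 1335 (Pou4f1, cDNA array 1), and 4 of 8 lay above background on all arrays. Oligodendrocyte genes summed to 194340 and 209626 on the number 1 arrays, against 185450 and 216378 on the number 0 arrays. Skeletal muscle genes summed to 1273 and 1259 on the number 1 arrays, against 1307 and 877 on the number 0 arrays. None of the marker genes of these lists was at 0 on an array, and their part in the members' values was not tested.

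The genes outside the lists whose pattern was most like that of Sprr1a, Atf3 and Gal were taken as those with the largest lower value of the 2 differences over the 4 arrays. They were Cst7 (3.51 on cDNA and 4.52 on aRNA; under background on both number 0 arrays, so these sizes rest on dim values), Lgals3 (2.98 and 2.61), C1qa (2.57 and 2.82), Ly86 (2.45 and 3.15), Lpl (2.25 and 6.32; under background on aRNA array 0) and Clec7a (2.13 and 4.20). These 6 ranked 1, 4, 5, 6, 9 and 10 of the 22519 probe sets, and Sprr1a (3) and Atf3 (7) lay among them. Likeness over 4 arrays says nothing of shared function or control.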

How the data were processed

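Expression was read from 4 arrays, 2 per preparation. The authors deposited a linear intensity for each probe set, and for the software that made it, none is named by the labels or file headers. Each array had a 2% trimmed mean of 2500.02, so the authors' values were already scaled, and they were used as deposited, after adding 16 and taking log2, which makes the changes of dim probe sets look smaller. Of 45101 probe sets 64 are controls; the 22519 others with a mean at or above the median (8.38) were tested with limma 3.58.1 in R 4.3.3 (intensity trend, Benjamini-Hochberg over all of them, threshold 0.05), for the preparations alone and for the number with preparation as a covariate, and the fit was tested on simulated data. A value under background was raised to it for an "at least" fold. An exact permutation test of 2 against 2 cannot go below 0.333 and was not run.

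Gene symbols came from the platform annotation (1 symbol for 34945 probe sets, several for 932, none for 9160), updated by gene identifier. The members and lists were chosen with earlier results of these data known. The rule for named genes took all members, the genes of each pathway or marker list called between the numbers, the 2 called with the largest difference each way between the preparations in each list, and the 6 genes outside the lists most alike in pattern (1 symbol, no _x_at probe set). Departing from it, the marker lists' differences between the preparations are not given. List genes were read at their brightest probe set on average. Alternatives changed the pseudocount (1, 64), scaling, filter, trend, replicate block and arrays. Figures were drawn with matplotlib 3.10.9.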

Additional observations from a re-analysis of the deposited data

Results flagged for a closer look

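At 4 of the members' 14 probe sets the arrays numbered 1 and 0 differed in opposite directions in the 2 preparations, which rest on 1 array each, so that the difference between the preparations was not tested. Stmn4 was −1.17 on cDNA and 0.05 on aRNA, −1.22 apart. Gadd45a was −0.53 on cDNA and 0.50 on aRNA, −1.03 apart. Socs3 1416576_at was −0.62 on cDNA, under background, and 0.08 on aRNA, −0.71 apart. Jun 1417409_at was 0.05 on cDNA and −0.05 on aRNA, 0.10 apart. Over all probe sets tested 48.5% had opposite signs.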

How the results depend on the processing

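Of 152 recomputed differences of the members between the preparations, 134 kept their direction and their side of the threshold, 6 lost a call (all Vgf: also with median centring, 0.0557, no filter, 0.0885, and no intensity trend, 0.128), 4 gained one (Sprr1a, 2 settings, and Socs3, 2) and 8, none of them called, changed sign. Not among the 152, Socs3 1416576_at was called lower without the filter, which made 5 members' probe sets lower. The sign changes were Atf3 with median centring (−0.047), without cDNA array 1 (−1.12) and without aRNA array 0 (−1.64), Gal without cDNA array 0 (0.64) and without aRNA array 1 (0.43), and, without aRNA array 0, Sprr1a (−0.71), Socs3 1455899_x_at (−0.28) and Socs3 1456212_x_at (−0.18). With 1 array left out Atf3 ranged from −1.64 to 1.84, Gal from −1.53 to 0.64, Sprr1a from −0.71 to 3.71, Socs3 1455899_x_at from −0.28 to 2.66 and 1456212_x_at from −0.18 to 1.86. Without 1 array in turn, where the lone array of a preparation is assumed to vary like the others, 2 to 6 members' probe sets were called higher, the 6 being without aRNA array 1. With the filter at the 75th percentile, which tests fewer probe sets, 2892 of all probe sets were called higher. The pseudocount and scaling moved 3 of 56 number differences of the members by more than the spread between preparations (Gap43 to 0.46 and 0.55, Stmn2 1423280_at to −0.05). Calls between the numbers were 14, and 7 with a pseudocount of 64, 8 with median centring, 58 with quantile normalization, 28 without the filter and 0 without the trend (limma, 1101 at an unadjusted p under 0.05); the cause was not tested. None of the pathway list genes was called as fitted, and 4 were with quantile normalization and 1 without the filter (Npy, adjusted p = 0.0109). With 1 array left out no residual degree of freedom remained for the number, so no call could be made.

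The array numbers do not show that arrays were paired. The 2 differences correlated at r = 0.04 across probe sets, which with 2 pairs only cannot decide it. The number 0 arrays were unlike in sex-linked transcripts. Xist 1436936_s_at read 3913 on cDNA array 0 and 359 on aRNA array 0, and Eif2s3y 1417210_at read 226 and 8896. With the number as a replicate block cDNA was called higher at 4788 and lower at 5457 probe sets, and 4 members each way, Sprr1a added (1.50, adjusted p = 0.0128). Among the members, intensity under background limits Socs3 1416576_at alone. Sprr1a was dim on aRNA array 0 (221, against a background of 123). Its aRNA difference was 4.51 with a pseudocount of 1 and 4.17 with 64, against 4.42 as fitted. Taking the highest control as background left the same 13 probe sets above it.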

Other observations

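The genes here are ligands, receptors and relatives of members, named after their values were seen. The galanin receptor gene Galr1 lay under background on all 4 arrays. Galr2 read 115 and 119 on the number 1 arrays of cDNA and aRNA, under background, against 425 and 301 on the number 0 arrays, above it. Among the gp130 ligands, Il6 lay under background on all 4 arrays, and Lif read 261 and 171 on the number 1 arrays, against 56.1 and 90.4 on the number 0 arrays, above background on number 1 and under it on number 0. None of these 4 genes passed the filter on low values, so none was tested. Osm, a further ligand of this group, read 200 (under background) and 554 on the number 1 arrays, against 420 and 351 on the number 0 arrays (limma adjusted p = 0.986). The receptor genes Lifr and Il6st were brighter, at 28938 and 43407 for Lifr on the number 1 arrays, against 25412 and 42771 on the number 0 arrays (limma adjusted p = 0.97). Il6st read 3165 and 19542 on the number 1 arrays, against 2811 and 12553 on the number 0 arrays (limma adjusted p = 0.89).

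Among the relatives of Socs3 and Gadd45a, Cish, a SOCS family gene, read 1060 and 979 on the number 1 arrays of cDNA and aRNA, against 193 (under background) and 640 on the number 0 arrays (limma adjusted p = 0.779), and Socs1 lay under background on all 4. Gadd45b read 2528 and 1865 on the number 1 arrays, against 2267 and 2220 on the number 0 arrays (limma adjusted p = 0.995), and Gadd45g read 729 and 2348 on the number 1 arrays, against 663 and 1089 on the number 0 arrays (limma adjusted p = 0.892).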
